A study of Mus musculus with 6 samples.

Results

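The 10 genes described here encode writers, erasers and readers of N6-methyladenosine (m6A). They were chosen by name, as the rows of the deposited count table for *Mettl3*, *Mettl14*, *Wtap*, *Fto*, *Alkbh5*, *Ythdf1*, *Ythdf2*, *Ythdf3*, *Ythdc1* and *Igf2bp2*, out of 55487 genes in the table. All 10 passed the filter on low counts, which left 14531 genes for testing. The cells were mouse pulmonary artery smooth muscle cells (mPASMCs), obtained from a commercial supplier, identified by staining for α-smooth muscle actin and carrying no genetic change that the labels name. One group was transfected with a control siRNA (si-NC) and the other with an siRNA against the long noncoding RNA *Snhg18* (si-*Snhg18*), in both cases with a lipid reagent, and poly(A) RNA of 3 libraries per group was sequenced. The labels call the libraries of a group repeats 1 to 3 and do not say whether these came from separate cultures, so p-values measure the spread between these libraries, which may be technical. The oxygen level and the time after transfection are not given in the sources used here. The comparison asked whether the m6A machinery itself differed in mRNA level in cells with less *Snhg18*, an RNA that the study links to the m6A reader Hnrnpa2b1.

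m6A is a methyl group placed on adenosines inside mRNA, most often within a short consensus that contains GGAC. Mettl3 carries the methyltransferase activity, Mettl14 holds the RNA substrate beside it, and Wtap brings the pair to nuclear speckles. Fto and Alkbh5 are demethylases. Ythdc1 reads m6A in the nucleus and acts in splicing and export, the Ythdf proteins read it in the cytoplasm and act in decay and translation, and the Igf2bp proteins stabilize the mRNAs they bind.

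The depth was 18097718 to 25988746 counted reads per library, and si-*Snhg18* 3 was the smallest. *Snhg18* stood at 22.2 to 23.5 CPM in si-NC (read counts scaled to library size, normalized by TMM) and at 9.97 to 11.2 CPM in si-*Snhg18*, so every library matched its label. The 8 smooth muscle markers summed to 3624 to 3775 CPM in si-NC and 2724 to 3562 CPM in si-*Snhg18*, and all 8 were detected. Of these 8, *Tagln*, an actin-binding protein of contractile smooth muscle, was called, and it fell by 0.51 on the log2 scale (edgeR adjusted p = 0.0427). DESeq2 called 4, adding *Cald1*, *Cnn1* and *Des*, and the fit with a replicate block called 5, with *Myh11* as well, all lower. Over all tested genes, edgeR called 7.36%, DESeq2 14.2% and the fit with a replicate block 27.2%. *Acta2* (log2 fold change -0.22), *Smtn* (0.00) and *Myocd* (0.39) were called in none of these fits. Of the markers of other cells, the 3 epithelial ones had 11 reads or fewer in each library, and the leukocyte antigen *Ptprc* had 8 or fewer. The 4 leukocyte markers summed to 111 to 154 CPM against 69.1 to 109 CPM, of which *Cd53* made up 94.7 to 116 CPM and 50.5 to 51.2 CPM. *Cd53* was called, and it fell by 1.10 on the log2 scale (edgeR adjusted p = 0.00727). DESeq2 and the fit with a replicate block called it too. *Cd14* had the opposite sign to *Cd53*, with 11.1 to 31.3 CPM and 15.5 to 49.2 CPM (log2 fold change 0.59, adjusted p = 0.539, and 0.00369 with a replicate block). *Csf1r* had a log2 fold change of -0.14 (edgeR adjusted p = 0.864). The 5 endothelial markers summed to 12.4 to 14.0 CPM in si-NC and 13.3 to 15.4 CPM in si-*Snhg18*, and the 3 fibroblast markers to 459 to 542 CPM and 319 to 462 CPM. Of the endothelial ones tested, *Cdh5*, *Kdr* and *Vwf* had higher fitted values (log2 fold changes 0.05, 1.04 and 0.50) and *Tek* a lower one (-1.47). *Kdr* and *Tek* had few reads, 9 to 49 and 4 to 32 per library. Of the fibroblast ones, *Pdgfra* was lower (-0.34) and *Dpt* higher (0.28). None of these endothelial and fibroblast markers was called without a replicate block, and *Tek* and *Pdgfra* passed with it (adjusted p = 0.0341 and 0.0112). The part of these markers in the results below was not tested. In bulk libraries, fewer cells of a type and less RNA per cell cannot be told apart.

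Members of the Ythdf and Igf2bp families resemble one another, so their coding sequences were compared first, to show how far reads from paralogs can be told apart. The most alike stretch of 60 bases in the 3 Ythdf genes is printed here from the GRCm38 transcripts, with capitals at the 13 positions where the genes are not all the same. It lies in exon 5 of 6 of *Ythdf1* (chr2:180911117-180911176, minus strand), exon 4 of 5 of *Ythdf2* (chr4:132204562-132204621, minus strand) and exon 5 of 6 of *Ythdf3* (chr3:16204935-16204994, plus strand).
Ythdf1: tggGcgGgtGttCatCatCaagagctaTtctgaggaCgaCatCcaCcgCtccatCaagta
Ythdf2: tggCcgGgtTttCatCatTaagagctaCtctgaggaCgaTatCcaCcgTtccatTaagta
Ythdf3: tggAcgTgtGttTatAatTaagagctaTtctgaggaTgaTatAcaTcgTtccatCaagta
The closest pair, *Ythdf1* and *Ythdf2*, differed at 7 of these bases, and either one differed from *Ythdf3* at 10. The longest identical run between the coding sequences was 22 bases for *Ythdf1* and *Ythdf2* and 17 bases for each of them with *Ythdf3*.

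The paralogs *Igf2bp1* and *Igf2bp3* were compared with *Igf2bp2* in the same way. The most alike stretch lies in exon 1 of each gene, with 17 positions that are not shared by all (chr11:96005471-96005530, chr16:22162798-22162857 and chr6:49214309-49214368 for *Igf2bp1*, *Igf2bp2* and *Igf2bp3*, all on the minus strand).
Igf2bp1: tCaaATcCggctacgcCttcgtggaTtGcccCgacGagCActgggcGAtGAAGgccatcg
Igf2bp2: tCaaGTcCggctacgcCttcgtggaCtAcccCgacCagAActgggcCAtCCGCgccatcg
Igf2bp3: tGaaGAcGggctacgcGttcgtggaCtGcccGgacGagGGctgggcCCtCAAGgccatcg
Runs of 17 to 20 identical bases were the longest here. Stretches of 50 bases were taken from the transcript with the longest coding sequence of each gene, and its other transcripts were not searched. None of those from *Ythdf1*, *Ythdf3*, *Igf2bp2* or *Mettl14* was found in a transcript of any other gene. By contrast, 8.55% of the 50-base stretches of *Ythdf2* also occurred in the pseudogenes *Gm6823* and *Gm8401*, which were counted at 0 to 2 reads. *Wtap* shared 18.1% of its stretches with 4 genes, of which *Gm14292* was counted at 24 to 59 reads, so reads of *Wtap* and *Ythdf2* may be divided in a way the counts do not show. *Ythdc1* shared 20.1% with the overlapping noncoding gene *Gm43055* (0 reads in all libraries).

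Per length, the readers and erasers were all above the catalytic pair of the writer complex. In RPKM, which is CPM divided by the exon length in kilobases, *Igf2bp2* had the highest level in si-NC cells, with 40.1 ± 1.82 RPKM (SD, n = 3), and *Alkbh5* followed with 38.4 ± 3.78 RPKM. The ranges of these 2 genes overlapped, so their order is not set. *Ythdf1* (25.1 ± 1.15 RPKM) and *Wtap* (24.2 ± 0.617 RPKM) came next, and their ranges overlapped too. *Ythdf3* stood at 23.0 ± 0.581 RPKM and *Fto* at 21.0 ± 0.666 RPKM. *Ythdc1*, at 17.2 ± 1.99 RPKM, overlapped with *Ythdf2*, at 15.4 ± 1.19 RPKM. At the bottom were *Mettl3*, with 8.84 ± 1.39 RPKM, and *Mettl14*, with 6.34 ± 0.111 RPKM. In si-*Snhg18* cells the first 2 and the last 5 places of this order were held by the same genes, while *Wtap*, *Ythdf3* and *Ythdf1* ran in that order from place 3 to place 5. There the range of *Ythdf3* overlapped with those of *Wtap* and *Ythdf1*, and the range of *Ythdf1* with that of *Fto*. Ranges also overlapped for *Igf2bp2* and *Alkbh5*, for *Ythdc1* and each of *Ythdf1*, *Fto* and *Ythdf2*, and narrowly for *Mettl3* and *Mettl14*. The order of genes with overlapping ranges is not set. Values in TPM, which are scaled to the same total in each library, gave the same order of means in si-NC. TPM and RPKM share the counts and exon lengths and rank the genes alike within a library, so TPM is no separate check of this order.

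**Figure D1:**
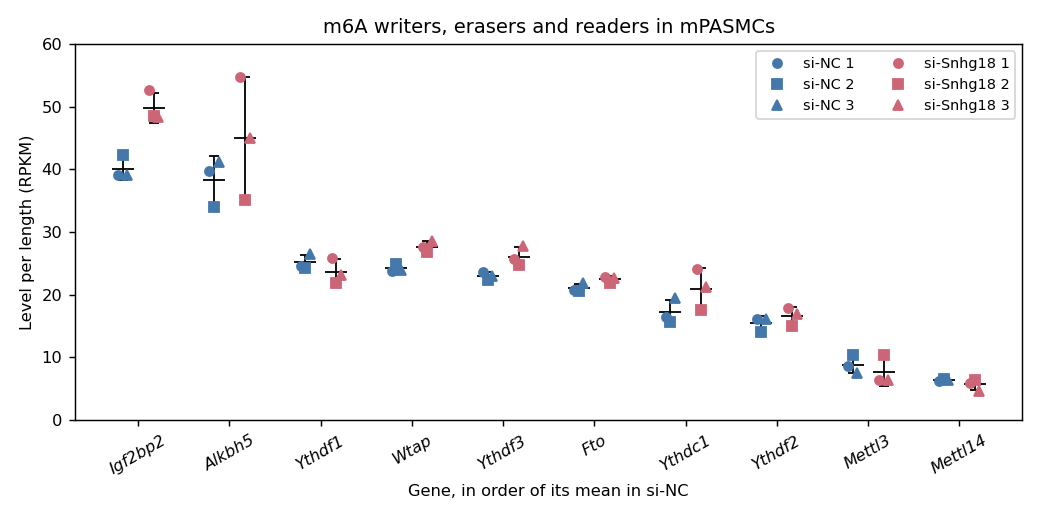
Level per length (RPKM) of each gene in each library, with si-NC in blue, si-Snhg18 in red, a marker shape for each library number, and the mean with its SD as a bar. *Mettl3* and *Mettl14* lie lowest in both groups, and for *Igf2bp2* the 3 red points lie above the 3 blue ones.

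Changes after *Snhg18* knockdown were small. Of the 10 genes, 1 passed the test, the reader *Igf2bp2*, which rose. Over all tested genes, 7.36% were called at an adjusted p under 0.05 (edgeR quasi-likelihood test, Benjamini-Hochberg adjustment), and 3.65% were called higher. The fitted log2 fold changes ran from -0.20 for *Mettl3* to 0.31 for *Igf2bp2*, with a median of 0.14, against a median of 0.01 over all tested genes. By absolute size, the median was 0.19 for the 10 genes and 0.25 for all tested genes. The 95% interval of the change lay within 1.5-fold in either direction for 7 of the 10 genes, and reached past it for *Mettl3*, *Alkbh5* and *Ythdc1*. At an unadjusted p under 0.05 there were 3 genes, *Igf2bp2*, *Wtap* and *Ythdf3*, where 24.9% of all tested genes had such a p. The groups did not overlap for 4 genes, *Wtap*, *Fto*, *Ythdf3* and *Igf2bp2*, all higher in si-*Snhg18*. Such genes made up 30.9% of all tested genes in either direction and 15.4% in this one. For each of these 4 genes, an exact permutation test gave p = 0.1 (two-sided), the smallest it can give with 3 libraries against 3.

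**Figure D2:**
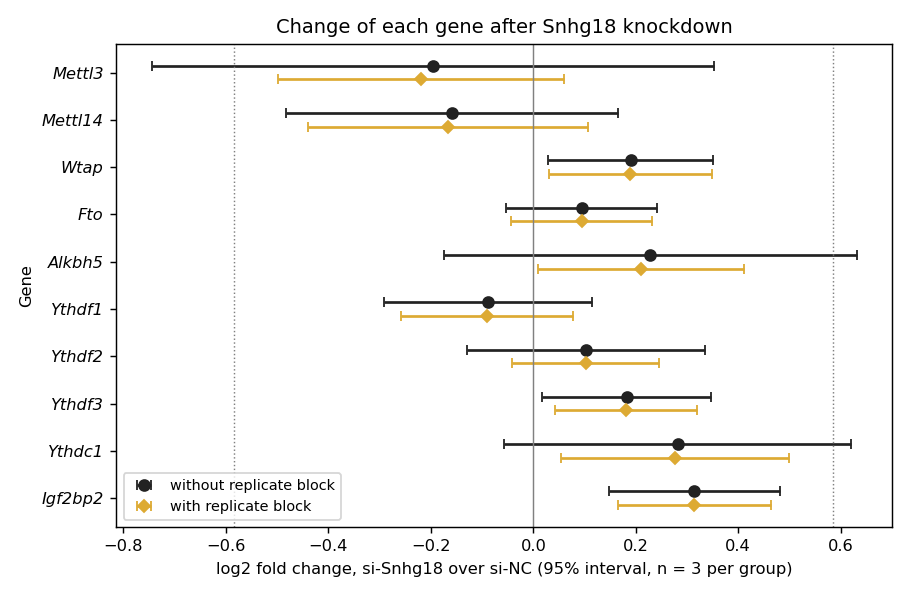
Fitted log2 fold change of each gene, si-Snhg18 over si-NC, with its 95% interval, from the fit without a replicate block (black circles) and with one (yellow diamonds). Dotted lines mark a change of 1.5-fold, and of the 10 genes *Igf2bp2*, with 0.31, lies farthest from 0.

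Among the writers, the catalytic subunit *Mettl3* (chr14:52294841-52305128, minus strand) had 17.6, 20.9 and 15.3 CPM in si-NC 1, 2 and 3. In si-*Snhg18* 1, 2 and 3 it had 12.9, 21.0 and 13.0 CPM. The groups overlapped because si-*Snhg18* 2 held the highest value of all 6 libraries. The log2 fold change was -0.20 (SE 0.23, edgeR adjusted p = 0.642), which leaves a range from 40.3% lower to 27.8% higher. The value depended on single libraries, since it was -0.07 without si-NC 2 or without si-*Snhg18* 1, -0.08 without si-*Snhg18* 3, -0.30 without si-NC 3 and -0.47 without si-*Snhg18* 2 (adjusted p from 0.0762 to 0.915). The coefficient of variation of *Mettl3* was 15.7% in si-NC and 29.6% in si-*Snhg18*, where counting error alone would give about 4.88% and 5.44%. The 3′ end of *Mettl3* overlaps *Tox4*, a gene on the opposite strand, over 1561 bases of the genome, and 13.8% of its 50-base stretches occur in *Tox4* in reverse. *Tox4* was counted at 1404 to 2197 reads and *Mettl3* at 238 to 545 reads, and with no strand setting stated, reads of the overlap cannot be told apart. *Tox4* itself had 63.9 to 73.7 CPM in si-NC and 73.0 to 86.9 CPM in si-*Snhg18* (adjusted p = 0.341).

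*Mettl14* (chr3:123368297-123386108, minus strand), the partner that completes the catalytic heterodimer, had 17.1, 17.7 and 17.3 CPM in the si-NC libraries. In the si-*Snhg18* libraries it had 16.3, 17.4 and 12.9 CPM. Only si-*Snhg18* 3, the shallowest library with 235 reads of *Mettl14*, lay well below the rest. The log2 fold change was -0.16 (SE 0.14, adjusted p = 0.508), and it was -0.04 without that library and -0.25 without si-*Snhg18* 2. The ratio of *Mettl14* to *Mettl3* per length was 0.728 ± 0.105 in si-NC and 0.761 ± 0.165 in si-*Snhg18* (SD, n = 3), with overlapping ranges.

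The adaptor *Wtap* (chr17:12966796-12994169, minus strand) had a fitted change of the opposite sign to that of the catalytic pair. It had 48.9, 51.3 and 49.4 CPM in si-NC 1, 2 and 3 and 56.9, 55.1 and 58.7 CPM in si-*Snhg18* 1, 2 and 3. All si-*Snhg18* values were above all si-NC values, by 14.1% in the fit (log2 fold change 0.19, SE 0.067), but the adjusted p was 0.144. The ratio of *Wtap* to *Mettl3* per length was 2.78 ± 0.387 in si-NC and 3.79 ± 1.04 in si-*Snhg18*, and overlapped between the groups. It was 2.42 and 2.58 in the libraries numbered 2, and 4.35 and 4.43 in si-*Snhg18* 1 and 3.

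Of the erasers, *Fto* (chr8:91313525-91668439, plus strand) was the steadiest. It had 73.7, 73.4 and 77.7 CPM in si-NC and 81.3, 78.1 and 80.6 CPM in si-*Snhg18*. The groups did not overlap, though the gap between si-NC 3 and si-*Snhg18* 2 was narrow, and the log2 fold change was 0.09 (SE 0.062, adjusted p = 0.391). Its interval ran from 3.63% lower to 18.3% higher. The other annotated genes that lie within *Fto* were counted at no more than 3 reads in any library.

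*Alkbh5* (chr11:60536381-60558512, plus strand), the nuclear demethylase, had 228, 195 and 236 CPM in si-NC 1, 2 and 3. In si-*Snhg18* 1, 2 and 3 it had 314, 201 and 258 CPM, so that si-*Snhg18* 2 lay inside the range of the control libraries. The log2 fold change was 0.23 (SE 0.17, adjusted p = 0.446), with an interval from 11.4% lower to 55.0% higher. It was 0.06 without si-*Snhg18* 1, 0.15 without si-NC 2 and 0.38 without si-*Snhg18* 2. With 4711 to 7927 reads per library, counting error was about 1.32% to 1.39%, while the coefficient of variation was 9.86% in si-NC and 21.9% in si-*Snhg18*.

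The cytoplasmic YTHDF readers had fitted changes of both signs, and none passed the test. *Ythdf1* (chr2:180904377-180920949, minus strand), known for a part in translation, had 78.5, 77.4 and 84.2 CPM in si-NC and 82.4, 69.8 and 73.6 CPM in si-*Snhg18* (log2 fold change -0.09, SE 0.085, adjusted p = 0.558). *Ythdf2* (chr4:132184912-132212303, minus strand), which recruits the CCR4-NOT deadenylase, had 66.4, 58.1 and 66.7 CPM in si-NC and 73.6, 61.8 and 70.0 CPM in si-*Snhg18* (log2 fold change 0.10, SE 0.097, adjusted p = 0.555). In both genes the groups overlapped. With 1 library left out, the log2 fold change ran from -0.16 without si-*Snhg18* 1 to -0.04 without si-*Snhg18* 2 for *Ythdf1*, where it was -0.05 without si-NC 3. For *Ythdf2* it ran from 0.04 without si-NC 2 to 0.17 without si-*Snhg18* 2, and was 0.05 without si-*Snhg18* 1. *Ythdf3* (chr3:16183212-16217037, plus strand), which acts together with the other two, had 120, 114 and 117 CPM in si-NC and 131, 126 and 142 CPM in si-*Snhg18*. Its groups did not overlap, and the log2 fold change was 0.18 (SE 0.069), with an adjusted p of 0.166.

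Within the YTHDF family, the share of *Ythdf1* was lower and that of *Ythdf3* higher in si-*Snhg18*. By RPKM, *Ythdf1* made up 38.3%, 40.0% and 40.3% of the family in si-NC 1, 2 and 3 and 37.3%, 35.6% and 34.1% in si-*Snhg18* 1, 2 and 3. The share of *Ythdf3* was 36.6%, 36.8% and 35.1% in si-NC and 37.0%, 40.2% and 41.0% in si-*Snhg18*. Neither share overlapped between the groups, although si-*Snhg18* 1 lay close to the nearest control library in both. These shares were not tested. The share of *Ythdf2* was 24.3% ± 0.986 and 25.0% ± 0.699 (SD, n = 3). The summed level was 63.6 ± 2.50 RPKM in si-NC and 66.3 ± 4.09 RPKM in si-*Snhg18*, with overlapping ranges.

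*Ythdc1* (chr5:86804221-86836659, plus strand), the nuclear reader, had 53.0, 50.6 and 62.7 CPM in si-NC 1, 2 and 3 and 77.6, 56.4 and 68.2 CPM in si-*Snhg18* 1, 2 and 3. As with *Alkbh5*, si-*Snhg18* 1 was the highest library and si-*Snhg18* 2 lay within the control range. The log2 fold change was 0.28 (SE 0.14, adjusted p = 0.276), and the interval ran from 3.91% lower to 53.8% higher. Without si-*Snhg18* 1 the log2 fold change was 0.17.

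*Igf2bp2* (chr16:22059009-22163299, minus strand) had 152, 165 and 152 CPM in si-NC 1, 2 and 3. In si-*Snhg18* 1, 2 and 3 it had 205, 189 and 189 CPM, from 3444 to 5185 reads per library. Each si-*Snhg18* library was above each control library. The log2 fold change was 0.31 (SE 0.069), or 24.3% higher with an interval from 10.8% to 39.5%, and the edgeR adjusted p was 0.0469. A change of this size or more was fitted for 39.9% of all tested genes. The call lay close to the threshold and was lost when any library other than si-*Snhg18* 2 was left out. The adjusted p was then 0.211 without si-NC 1, 0.103 without si-NC 2, 0.189 without si-NC 3, 0.114 without si-*Snhg18* 1 and 0.164 without si-*Snhg18* 3, while the log2 fold change stayed between 0.27 and 0.35 in all 6 such fits. Without a filter on low counts beyond 1 read, which raised the number of tested genes to 25015, the adjusted p was 0.0991.

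*Igf2bp2* was the main paralog of its family in these cells. It made up 84.9%, 84.3% and 84.9% of the summed IGF2BP level per length in si-NC and 90.2%, 85.7% and 86.4% in si-*Snhg18*. *Igf2bp3* took 12.8% ± 0.447 in si-NC and 9.87% ± 2.20 in si-*Snhg18*, and *Igf2bp1* 2.47% ± 0.150 and 2.71% ± 0.319 (SD, n = 3). The summed level of the family was 46.0, 50.1 and 46.0 RPKM in si-NC and 58.3, 56.7 and 56.0 RPKM in si-*Snhg18*. It did not overlap between the groups, whether scaled by TMM, by RLE size factors or by library totals. As *Igf2bp2* made up most of this sum, the sum is no separate support for its change. The shares and the sum were not tested. *Igf2bp1* had 9.54 to 10.1 CPM in si-NC and 11.7 to 14.2 CPM in si-*Snhg18* (log2 fold change 0.40, SE 0.12), with an adjusted p of 0.103 that became 0.0404 with the replicate number as a block. *Igf2bp3* had 25.0 to 29.0 CPM and 18.8 to 28.6 CPM (adjusted p = 0.711), and 34.5% of its 50-base stretches occur in reverse in *Malsu1*.

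Over the 6 libraries, the tested genes most like *Igf2bp2* in log2 CPM were *Slc6a8* (Pearson r = 0.997), a creatine transporter, *Frg2f1* (r = 0.997) and *Hdhd5* (r = 0.995). These correlations share the difference between the groups and the normalization, and 181 tested genes reached r = 0.95. The log2 fold changes were 0.29 for *Slc6a8*, 0.96 for *Frg2f1* and 0.43 for *Hdhd5* (edgeR adjusted p = 0.0469, 0.0376 and 0.0879). As these genes were picked for following *Igf2bp2* over the same libraries, their differences are no separate support.

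Deviations from the group means were most alike in the libraries numbered 2. Of the 10 genes, 6 were lowest in the library numbered 2 of both groups, namely *Fto*, *Alkbh5*, *Ythdf1*, *Ythdf2*, *Ythdf3* and *Ythdc1*. Across all tested genes this held for 29.8%. *Mettl3* and *Mettl14* were highest in the library numbered 2 of both groups, as were 32.2% of all tested genes. When each si-*Snhg18* library was set against the si-NC library of its number, all 3 differences were above 0 for 7 genes, compared with 29.6% of all tested genes, and all 3 were below 0 for *Mettl14*. The spread of these differences was widest for *Ythdc1* (0.55, 0.15 and 0.12 on the log2 scale), *Alkbh5* (0.46, 0.04 and 0.13) and *Mettl3* (-0.45, 0.01 and -0.22). In the blocked fit, *Igf2bp2* was again the 1 gene called of the 10, while 27.2% of all tested genes were called. The intervals of all 10 genes then lay within 1.5-fold.

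**Figure D3:**
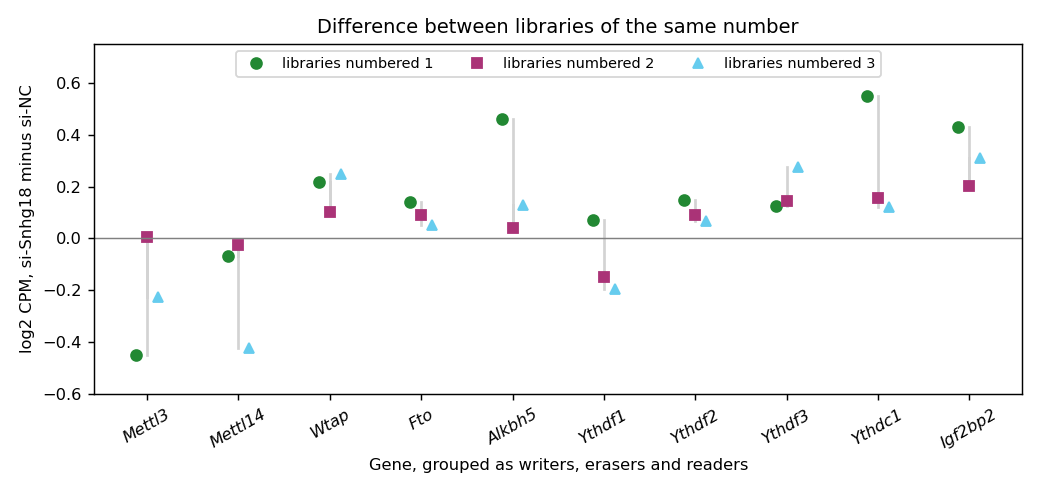
Difference in log2 CPM between the si-Snhg18 and the si-NC library of the same number, for each gene, with circles for number 1, squares for number 2 and triangles for number 3. All 3 points lie above 0 for 7 of the 10 genes, and the circle lies far above the other points for *Alkbh5* and *Ythdc1*.

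A single form of the m6A consensus, GGACT, was also counted in the mRNAs of the 10 genes themselves, and other forms were not searched. GGACT, searched on the mRNA strand of the transcript with the longest coding sequence, occurred in 86.7% of 21901 coding genes, with a median of 1.02 matches per kilobase. *Wtap* held 5 matches in 2060 bases (2.43 per kilobase) and *Mettl3* 4 in 2025 bases (1.98 per kilobase). *Igf2bp2* held 5 matches (1.28 per kilobase), *Ythdf1* and *Ythdf3* 1 each, and *Ythdc1* 0. *Eno3*, the glycolytic enzyme gene whose mRNA the study examined for m6A, held 3 matches (1.92 per kilobase), and it fell by 1.17 on the log2 scale, from 38.6 to 40.0 CPM in si-NC to 15.0 to 19.6 CPM in si-*Snhg18* (adjusted p = 0.00761). A match to these letters is not a measured m6A site.

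Outside the 10 genes, 72 genes in 8 lists around m6A and other RNA modifications were all tested, and 4 were called (5.56%), against 7.36% of all genes. The remaining subunits of the writer complex had 0 calls among 5 genes with edgeR, DESeq2 or limma-voom, and 0 genes at an unadjusted p under 0.05, with a median log2 fold change of 0.08. The smallest p-values belonged to the RNA-binding subunit *Rbm15* (0.29, adjusted p = 0.405), the scaffold *Virma* (-0.10, adjusted p = 0.420) and *Rbm15b* (0.25, adjusted p = 0.430). Among 6 genes of other m6A methyltransferases, the cofactor included, there were 0 calls with edgeR and limma-voom and 1 with DESeq2, and 1 gene had an unadjusted p under 0.05. In both cases this was *Pcif1*, the writer of m6Am at the cap, with 16.4 to 19.9 CPM in si-NC and 22.3 to 26.4 CPM in si-*Snhg18* (log2 fold change 0.44, adjusted p = 0.0887, and 0.0336 with the block). *Trmt112*, the cofactor of several methyltransferases, had a log2 fold change of -0.25 (adjusted p = 0.234), and *Mettl5*, which methylates ribosomal RNA, one of -0.36 (adjusted p = 0.515).

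Of the 7 other AlkB family dioxygenases, 6 had lower fitted values, where 50.8% of all tested genes had higher ones. With edgeR and limma-voom, 1 of the 7 was called. DESeq2 called 2, *Alkbh8* and *Alkbh7*. *Alkbh8*, which modifies tRNA, had 17.1, 19.0 and 19.1 CPM in si-NC and 11.6, 13.0 and 10.1 CPM in si-*Snhg18*, without overlap, and fell by 0.67 on the log2 scale (SE 0.13, adjusted p = 0.0333). *Alkbh7*, a mitochondrial member of few reads, had 3.47 to 4.27 CPM and 1.75 to 2.65 CPM (log2 fold change -0.85, adjusted p = 0.0774, and 0.0377 with the block). *Alkbh1* and *Alkbh3* had log2 fold changes of -0.23 and -0.29 (adjusted p = 0.264 and 0.377).

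Of the 10 other readers, *Elavl1* was called. This RNA stabilizing protein, whose binding to m6A may be indirect, had 88.0, 84.2 and 84.9 CPM in si-NC and 68.5, 65.1 and 67.3 CPM in si-*Snhg18*, and fell by 0.35 on the log2 scale (SE 0.061, adjusted p = 0.0253). *Hnrnpa2b1*, the reader that the study places beside *Snhg18*, had 554, 525 and 563 CPM in si-NC and 486, 511 and 470 CPM in si-*Snhg18*. Its groups did not overlap, yet the difference was small (-0.16 on the log2 scale, SE 0.066, an interval from 20.0% to 0.298% lower) and did not pass the test (adjusted p = 0.191). In an experiment that included hypoxia, the study reported that *Snhg18* knockdown left Hnrnpa2b1 unchanged by qRT-PCR and Western blot. At 332 RPKM in si-NC, *Hnrnpa2b1* was far more abundant per length than any of the 10 genes. *Prrc2a* (0.09, adjusted p = 0.420) and the translation factor subunit *Eif3a* (-0.08, adjusted p = 0.495) had the next smallest p-values.

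In the supply of methyl groups, *Mtr*, the methionine synthase, had 29.4, 28.6 and 27.7 CPM in si-NC and 41.0, 40.8 and 41.3 CPM in si-*Snhg18*. It rose by 43.8% (log2 fold change 0.52, SE 0.072, adjusted p = 0.0144), with little spread within either group. It was the 1 gene called of 7 with edgeR and limma-voom, while DESeq2 called *Ahcyl1* too. *Mat2a*, which makes S-adenosylmethionine, had a log2 fold change of -0.01 (adjusted p = 0.955). *Ahcyl1* (-0.25, adjusted p = 0.0733) and *Mat2b*, the regulatory subunit of that enzyme (0.27, adjusted p = 0.144), passed with the block (adjusted p = 0.0156 and 0.0188).

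Among the partners of Ythdc1 in splicing and export, 0 of 6 genes were called with edgeR, DESeq2 or limma-voom. An unadjusted p under 0.05 was found for 3 of the 6, against 24.9% of all tested genes. These 3 were the splicing factor *Srsf3* (-0.27, adjusted p = 0.117) and the 3′ end processing factors *Nudt21* (-0.26, adjusted p = 0.123) and *Cpsf6* (0.30, adjusted p = 0.158). With the block, *Srsf3* and *Cpsf6* passed, at adjusted p = 0.0147 and 0.0384. Among 13 genes of the deadenylation and decay machinery that works with Ythdf2, 9 had higher fitted values, against 50.8% of all tested genes. Of the 13, *Upf1* was called. *Upf1*, the helicase of nonsense-mediated decay, had 133, 111 and 132 CPM in si-NC and 209, 164 and 213 CPM in si-*Snhg18*, and rose by 0.64 on the log2 scale (SE 0.13, adjusted p = 0.0367). The deadenylases *Cnot6* (0.45, adjusted p = 0.141) and *Cnot7* (0.28, adjusted p = 0.231) passed with the block (adjusted p = 0.0120 and 0.0200). *Cnot4*, which is not a deadenylase, passed neither without the block (0.18, adjusted p = 0.307) nor with it.

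With the block, 15 of the 72 genes were called (20.8%), against 27.2% of all tested genes. The count without the block also changed with each library left out. Without si-NC 1, si-NC 2, si-NC 3 or si-*Snhg18* 3 there were 0 calls among the 72 genes, without si-*Snhg18* 1 there was 1, and without si-*Snhg18* 2 there were 12.

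**Figure D4:**
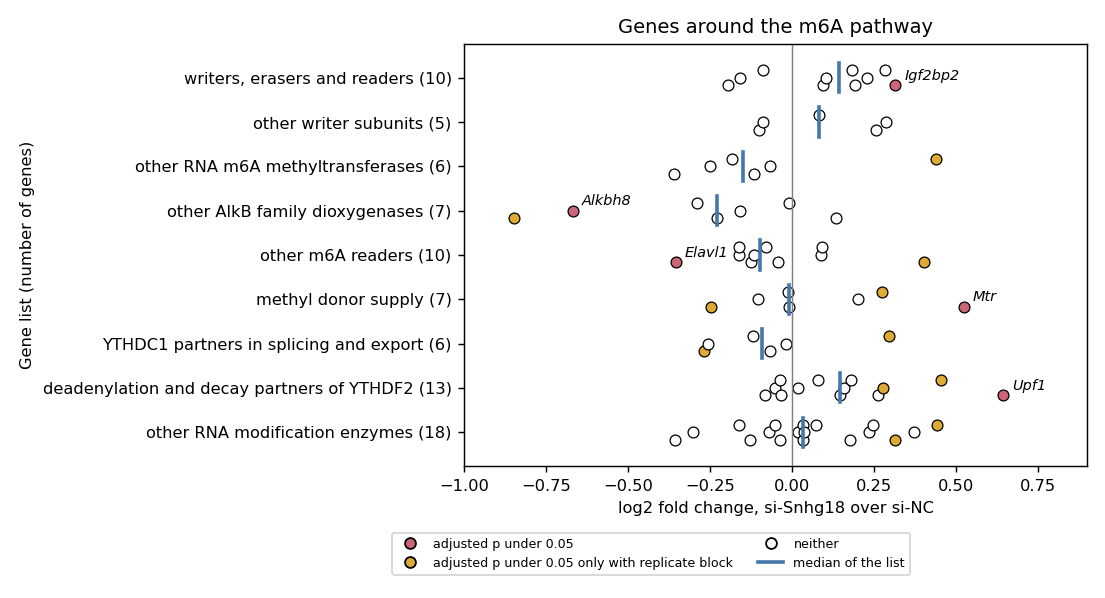
Fitted log2 fold change, si-Snhg18 over si-NC, of the 10 genes in the top row and of the 72 genes of the 8 related lists below it, with a blue bar at the median of each list. Red points passed the test and are named, and yellow points passed in the blocked fit alone.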

How the data were processed

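Gene counts of 6 mPASMC libraries, 3 of si-NC and 3 of si-*Snhg18*, were used. The authors prepared stranded poly(A) libraries, and the submitters' processing notes name HISAT2 and the build mm10. The counts were deposited as whole numbers of reads per gene, without normalization, beside exon lengths and positions on GRCm38. The counting program and its strand setting are not given in the sources used here. No other column of counts was present.

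Groups were compared by edgeR 4.0.16 in R 4.3.3, using filterByExpr with a minimum count of 10, TMM, glmQLFit and glmQLFTest (two-sided), with Benjamini-Hochberg adjustment over 14531 genes and a call at an adjusted p under 0.05. SE and 95% intervals come from this fit. CPM and RPKM are normalized by TMM, RPKM uses the exon lengths of the file, and a prior count of 2 enters log2 CPM. The common biological coefficient of variation was 0.218. Alternatives were RLE size factors, library totals, DESeq2 1.42.0, limma-voom (limma 3.58.1), other filters, the replicate block and leaving out each library. DESeq2 with the block, the block with a pair left out and thinning to 18097718 reads were chosen after the data had been seen. Transcripts came from GENCODE on GRCm38, and overlaps, 50-base stretches and motifs were found by exact matching.

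The 10 genes and the related lists were chosen with earlier results of these data known. Named are all 10 genes, of the related lists each gene called, *Hnrnpa2b1* and up to 3 more of smallest p per list, *Snhg18*, *Eno3*, genes overlapping one of the 10, and the 3 genes most like *Igf2bp2*. *Igf2bp3* completes its family, and *Mat2a*, *Adar*, the marker genes and the sequence matches were named after their values were seen. A further gene that the rule would name is not reported here.

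Library numbers in the labels gave the pairing. Deviations from the group means correlated at 0.410, 0.742 and 0.359 between libraries numbered 1, 2 and 3 over 14531 genes. Only the libraries numbered 2 stood out, as si-NC 3 correlated more with si-*Snhg18* 1 (0.497) than with si-*Snhg18* 3. This check therefore does not establish that the numbers pair the libraries. The sources do not say that a number marks a shared culture.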

Additional observations from a re-analysis of the deposited data

How the results depend on the processing

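None of the 10 fold changes turned its direction under any of 18 alternatives, and *Igf2bp2* kept a log2 fold change between 0.25 and 0.37. It was the 1 of the 10 genes called with RLE size factors, library totals, DESeq2, limma-voom, at least 10 reads in each library, thinning and the replicate block, and 0 were called without a filter beyond 1 read, where 1 had an unadjusted p under 0.05. Leaving out 1 library gave 0 to 1 of the 10 genes, 0 to 12 of the 72 related genes and 0 to 3282 of all tested genes, the most without si-*Snhg18* 2. These fits have fewer libraries, and with 0 calls over all genes there were still 2464 to 2731 genes at an unadjusted p under 0.05. The replicate block changed no call among the 10 genes and raised the related genes called from 4 to 15 and all genes from 1069 to 3954. With the block and a pair left out, *Ythdf3* joined *Igf2bp2* without pair 1 (2 of the 10, 17 related, 4542 in all), 14 related genes and 3504 in all were called without pair 2, and 0 of the 10, 1 related and 651 in all without pair 3. DESeq2 called 7 related genes and 2069 in all, and 11 and 3102 with the block. The cause of these differences between tools was not tested. The median half-width of the 95% intervals was 0.22 on the log2 scale for the 10 genes and 0.41 for all tested genes. The spread between libraries exceeded counting error in both groups for 7 of the 10 genes, and in 1 of the groups for *Mettl14*, *Wtap* and *Fto*.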

Other observations

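Enzymes of other RNA modifications gave 0 calls among 18 genes with edgeR, DESeq2 or limma-voom, and 2 had an unadjusted p under 0.05. These were the tRNA methyltransferase *Mettl2* (log2 fold change 0.37, adjusted p = 0.160) and the mitochondrial *Trmt10c* (-0.30, adjusted p = 0.180). *Nat10*, which acetylates cytidine, had a log2 fold change of 0.31 (adjusted p = 0.287). With the replicate number as a block, *Nat10* (adjusted p = 0.0315) and the adenosine deaminase *Adar* (0.47, adjusted p = 0.00417, against 0.357 without the block) passed. The median over the 18 genes was 0.03, against 0.01 over all tested genes.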
